A study of Mus musculus with 20 samples.

Results

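The genes described here are the 31 SR protein and hnRNP genes of mouse liver, taken as every protein-coding gene of the raw count table with at least 10 counts in total whose symbol begins with Srsf (11 genes) or Hnrnp (20 genes). They are 31 of the 15522 tested genes, out of 21780 genes in the table. Polyadenylated RNA was measured in whole liver of male C57Bl/6J mice, 8 weeks old at the start, that were all fed a high-fat diet (HFD, 42% of kcal from fat) for 12 weeks. After 2 weeks of diet each mouse was gavaged once with corn oil alone (HFD control), with the polychlorinated biphenyl (PCB) mixture Aroclor 1260 at 20 mg/kg (HFD + Aroclor), with the single congener PCB 126 at 20 µg/kg (HFD + PCB 126), or with both (HFD + Aroclor + PCB 126, called the combined exposure here). Each group held 5 mice, 1 library per mouse, and every group including the controls was on the HFD, so that no comparison bears on the diet. Aroclor 1260 is a non-dioxin-like mixture, and PCB 126 is a dioxin-like congener that activates the aryl hydrocarbon receptor. The question taken up here is whether the transcripts of general splicing regulators differed between the exposures.

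SR proteins carry RNA recognition motifs and a tail rich in arginine-serine dipeptides. They bind enhancers in exons and help recruit the U1 and U2 particles to splice sites. The hnRNPs are abundant nuclear RNA-binding proteins that coat new transcripts and often act against SR proteins at the same exon, and several also control mRNA export, stability and translation. Many genes of both families regulate their own output by splicing in a poison exon, which sends the transcript to nonsense-mediated decay. In liver, SR proteins such as Srsf1, Srsf2 and Srsf3 are known to be needed for hepatocyte function.

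Because several members compared differently between groups once the libraries were corrected for base composition, sequences of close relatives are shown. Hnrnpa0 stands beside relatives of lower GC content, and Srsf1 beside Srsf9, of nearly equal GC content in the stretch shown. Over all annotated transcript bases, which the correction uses, Srsf1 had 44.0% GC and Srsf9 50.5%. Each sequence is a stretch of 72 coding bases around the part of an RNA recognition motif known as RNP1, the core that contacts RNA, read from the GENCODE M21 transcripts of the mouse genome build GRCm38. Capitals mark G or C at the third position of a codon, the position that can most often change without changing the amino acid. Hnrnpa0 lies at chr13:58128122-58128193 on the minus strand (exon 1), Hnrnpa1 at chr15:103241455-103241526 on the plus strand (exon 3), Hnrnpa2b1 at chr6:51466972-51467043 on the minus strand (exon 4) and Hnrnpa3 at chr2:75661680-75661751 on the plus strand (exon 3). The stretches of Srsf1, chr11:88047977-88048505, and Srsf9, chr5:115327444-115330513, both on the plus strand, run from exon 1 into exon 2.
Hnrnpa0: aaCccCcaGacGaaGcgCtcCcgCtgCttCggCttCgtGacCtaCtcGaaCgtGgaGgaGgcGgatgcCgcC
Hnrnpa1: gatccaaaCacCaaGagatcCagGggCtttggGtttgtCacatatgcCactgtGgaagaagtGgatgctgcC
Hnrnpa2b1: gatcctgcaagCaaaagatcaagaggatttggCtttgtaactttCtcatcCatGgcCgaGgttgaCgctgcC
Hnrnpa3: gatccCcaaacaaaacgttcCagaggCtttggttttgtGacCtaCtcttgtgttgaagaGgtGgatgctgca
Srsf1: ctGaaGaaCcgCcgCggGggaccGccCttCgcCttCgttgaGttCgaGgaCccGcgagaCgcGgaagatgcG
Srsf9: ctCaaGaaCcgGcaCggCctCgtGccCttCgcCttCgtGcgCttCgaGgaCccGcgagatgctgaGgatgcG

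Of the 24 codons shown, 23 ended in G or C in Hnrnpa0, against 12 in Hnrnpa1, 9 in Hnrnpa2b1 and 8 in Hnrnpa3. Hnrnpa0 and Hnrnpa3 were identical at 51 of 72 bases, and 15 of their 21 differences fell at the third position. Srsf1 and Srsf9, which had 19 and 20 such codons, were identical at 56 of 72 bases, and 9 of their 16 differences fell at the third position. The contrast extends over whole coding sequences, where G or C filled 93.8% of the third positions in Hnrnpa0, the highest of the 31, and 31.6% in Hnrnpa3, the lowest. The median of the members was 50.6%, below the median of 58.9% over the 21272 protein-coding genes of the table with a complete coding sequence. A stretch encoding the RNP1 pattern was found in 18 of the 31 members and in 1.05% of those 21272 genes. The pattern allowed only set codons at most positions, so members without a match are not shown to lack an RNA recognition motif. Over all annotated transcript bases, GC content ran from 41.1% in Hnrnph1 to 55.4% in Hnrnpa0 with a median of 45.1%, and 25 of the 31 members lay below the median of all tested genes, 50.2%.

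Total counts ran from 21836506 (HFD control replicate 4) to 36854887 per library. They ran from 23471120 to 29366462 in combined exposure libraries and from 31265022 to 35611837 in Aroclor libraries. These groups did not overlap in depth, and the part of depth in their comparison was not tested. In every library the deviation of each gene from its mean over mice was set against its GC content. This GC slope, in log2 CPM per 10 percentage points of GC, was 0.26 ± 0.19 in HFD control livers (SD, n = 5, from -0.0033 in replicate 4 to 0.51 in replicate 1). It was 0.010 ± 0.093 with Aroclor, 0.12 ± 0.22 with PCB 126 and -0.39 ± 0.21 with the combined exposure (-0.68 to -0.13). The control and combined libraries did not overlap in slope, so a change in GC-poor genes as a class and a library effect cannot be told apart, and each result is given without and with a correction for the slope. Hepatocyte markers were abundant in all 20 livers, with sums of 75956 to 84617 CPM in control and 70879 to 98846 CPM in combined exposure livers, and with the combined exposure 4 of 5 stellate cell markers were called (3 higher), with sums of 126 to 234 CPM in control and 251 to 321 CPM in combined exposure livers. Without correction 2 of 6 hepatocyte markers and 1 of 5 endothelial markers were lower, 1 of 6 Kupffer cell and 1 of 5 leukocyte markers were higher and 0 of 5 cholangiocyte markers were called, where 32.8% of all tested genes were called. After GC correction 1 hepatocyte and 1 endothelial marker were called and 0 of the others, stellate markers included, where 9.41% of all tested genes were called. No marker was at 0 in all livers. The part of stellate cells in the results was not tested, and in whole liver fewer cells of a type and less RNA per cell cannot be told apart.

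Levels are compared between genes as CPM (read counts scaled to the library's size) per kb of merged exon in the 5 HFD control livers (mean ± SD). The most abundant members were Hnrnpab at 55.2 ± 0.553, a CArG-box and RNA-binding protein, and Hnrnpa2b1 at 51.5 ± 7.02, an hnRNP that reads N6-methyladenosine (m6A). They were followed by Srsf5 at 36.6 ± 7.89, Hnrnpk at 28.1 ± 3.07, Srsf2 at 25.5 ± 3.97, Hnrnpc at 21.6 ± 2.44, Srsf6 at 20.5 ± 2.89 and Hnrnpu at 19.6 ± 2.54. The control mice of Hnrnpab and Hnrnpa2b1 overlapped, Srsf5 stood below both in every mouse, and from Srsf5 down each gene overlapped the next. Among SR genes the classical exonic enhancer binder Srsf1 stood at 11.03 ± 1.30, its relative Srsf9 at 12.2 ± 0.741 and Srsf3 at 4.07 ± 0.467. The lowest members with counts in every mouse were Srsf10 at 2.27 ± 0.363, Hnrnpll at 1.62 ± 0.276 and Hnrnpr at 0.901 ± 0.183. Srsf12 was barely detected, with 23 counts in 20 livers and none in 9 of them.

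**Figure D1:**
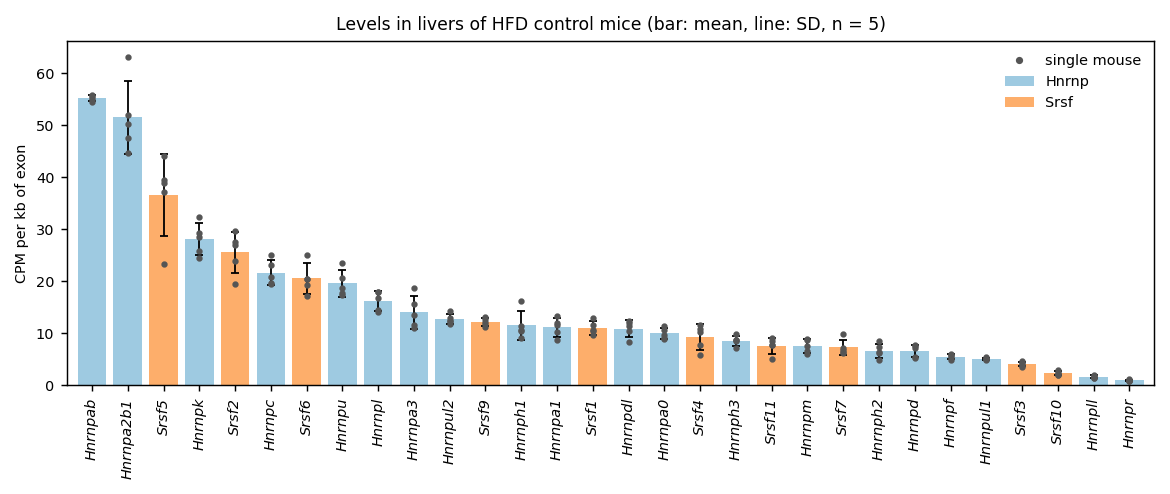
Level of each SR (orange) and hnRNP (blue) gene in HFD control livers, in CPM per kb of exon, as mean (bar), SD (line) and single mice (points, n = 5), ordered by mean and without Srsf12. Hnrnpab and Hnrnpa2b1 lead at 55.2 and 51.5 CPM per kb and Hnrnpr, with 22199 bases of merged exon, is lowest at 0.901 on this scale.

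Between the combined exposure and HFD control, edgeR's quasi-likelihood test called 12 of 31 members at an adjusted p under 0.05, where it called 32.8% of all tested genes. Higher were 10 members, Srsf1, Srsf3, Srsf5, Srsf10, Hnrnpa0, Hnrnpd, Hnrnpk, Hnrnpll, Hnrnpr and Hnrnpu, against 15.8% of all genes called higher, by log2 fold changes of 0.26 to 0.53. Lower were 2 members, Srsf4 and Srsf9, against 17% of all genes called lower. The median log2 fold change was 0.21 over the 31 members (0.26 over Srsf genes and 0.15 over Hnrnp genes) and -0.00096 over all tested genes. Without overlap between the 5 control and the 5 combined exposure mice, 4 members stood higher (10.6% of all genes) and 1 stood lower (8.14%).

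Among the SR genes called, Srsf1 and Srsf10 had the largest log2 fold changes. Srsf1, which binds purine-rich exonic enhancers and shuttles to the cytoplasm, stood at 60.2, 55.2, 66.2, 74.2 and 59.2 CPM in HFD control replicates 1 to 5 and at 93.4, 85.7, 87.6, 96.8 and 91.3 CPM in combined exposure replicates 1 to 5. Every combined exposure mouse lay above every control mouse, with a log2 fold change of 0.53 ± 0.097 (SE, adjusted p = 0.00105, edgeR). Srsf10, an SR protein that represses splicing when it is dephosphorylated, as in mitosis and heat shock, had 13.2, 14.3, 15.9, 19.9 and 15.99 CPM in control and 22.9, 20.9, 20.9, 23.9 and 26.0 CPM in combined exposure livers. Its groups did not overlap either, although control replicate 4 lay close to the lowest combined exposure mice (0.53 ± 0.12, adjusted p = 0.00248, edgeR). Srsf5, an SR protein first found as an insulin-induced transcript of regenerating liver, had 157, 176, 92.7, 155 and 148 CPM in control and 186, 183, 217, 216 and 223 CPM in combined exposure livers. Control replicate 3 was the low extreme, and the highest control mouse stayed below the lowest combined exposure mouse (0.49 ± 0.14, adjusted p = 0.0110, edgeR).

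Srsf3, the smallest SR protein, rose less, from 32.2, 29.4, 34.1, 37.2 and 27.9 CPM in control to 36.5, 36.5, 38.9, 40.7 and 39.2 CPM in combined exposure livers, and control replicate 4 exceeded 2 of the combined exposure mice (0.26 ± 0.086, adjusted p = 0.0281, edgeR). Srsf9, the closest relative of Srsf1, went the other way. It stood at 18.6, 19.97, 20.98, 19.3 and 21.6 CPM in control and 15.8, 15.3, 14.3, 11.9 and 14.9 CPM in combined exposure livers, every combined exposure mouse below every control mouse (-0.48 ± 0.11, adjusted p = 0.00377, edgeR). Srsf4, a long SR protein first known as SRp75, had 36.4, 38.5, 27.8, 20.5 and 41.5 CPM in control and 24.6, 24.2, 24.9, 21.5 and 24.1 CPM in combined exposure livers (-0.47 ± 0.15, adjusted p = 0.0183, edgeR). The 5 combined exposure mice were tight, and the control mice spread, with replicate 4 below all of them. Not called were Srsf2 (0.26), Srsf6 (0.17), Srsf7 (0.017) and Srsf11 (0.32). Srsf12 had 4, 0, 0, 2 and 0 counts in control and 1, 0, 2, 8 and 0 counts in combined exposure livers, too few for a fold change.

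Among the hnRNP genes, Hnrnpr, a relative of Syncrip that binds mRNA in transport granules and the nucleus, was the only one whose groups did not overlap. It had 15.8, 16.9, 18.95, 25.5 and 22.9 CPM in control and 27.2, 26.3, 26.1, 27.6 and 30.3 CPM in combined exposure livers, with control replicate 4 just under the lowest combined exposure mouse (0.46 ± 0.13, adjusted p = 0.00948, edgeR). Hnrnpu, a scaffold protein that binds chromatin and RNA, stood at 201, 218, 204, 273 and 238 CPM in control and 259, 284, 269, 323 and 286 CPM in combined exposure livers. Control replicate 4 alone reached into the range of the combined exposure (0.32 ± 0.087, adjusted p = 0.00749, edgeR). Hnrnpk, a KH-domain protein that binds C-rich tracts, had 159, 166, 189, 209 and 184 CPM in control and 218, 242, 204, 242 and 230.4 CPM in combined exposure livers (0.33 ± 0.091, adjusted p = 0.00996, edgeR). Again replicate 4 was the highest control and the groups overlapped through it.

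Hnrnpll, known for switching CD45 splicing in lymphocytes, rose by 0.40 ± 0.12 (adjusted p = 0.0144, edgeR), and Hnrnpd, which binds AU-rich elements and speeds decay of their mRNAs, by 0.39 ± 0.14 (adjusted p = 0.0409, edgeR). Hnrnpa0, which binds AU-rich elements of inflammatory mRNAs, stood at 28.7, 26.1, 23.5, 30.3 and 24.5 CPM in control and 30.0, 30.8, 28.1, 36.4 and 37.6 CPM in combined exposure livers. Combined exposure replicates 4 and 5 were high and the other 3 lay near the top of the control range (0.29 ± 0.11, adjusted p = 0.0437, edgeR). Both m6A readers were not called, Hnrnpa2b1 at 0.14 ± 0.093 (adjusted p = 0.277, edgeR) and Hnrnpc, which binds U-rich tracts, at 0.064 ± 0.088 (adjusted p = 0.629, edgeR). The other 12 hnRNP genes were not called either, with log2 fold changes from -0.22 in Hnrnpl to 0.29 in Hnrnph2. Summed over the family, Srsf genes had 574 ± 65.8 CPM in control and 703 ± 43.9 CPM in combined exposure livers (SD, n = 5), and Hnrnp genes 1701 ± 178 and 1892 ± 129 CPM.

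**Figure D2:**
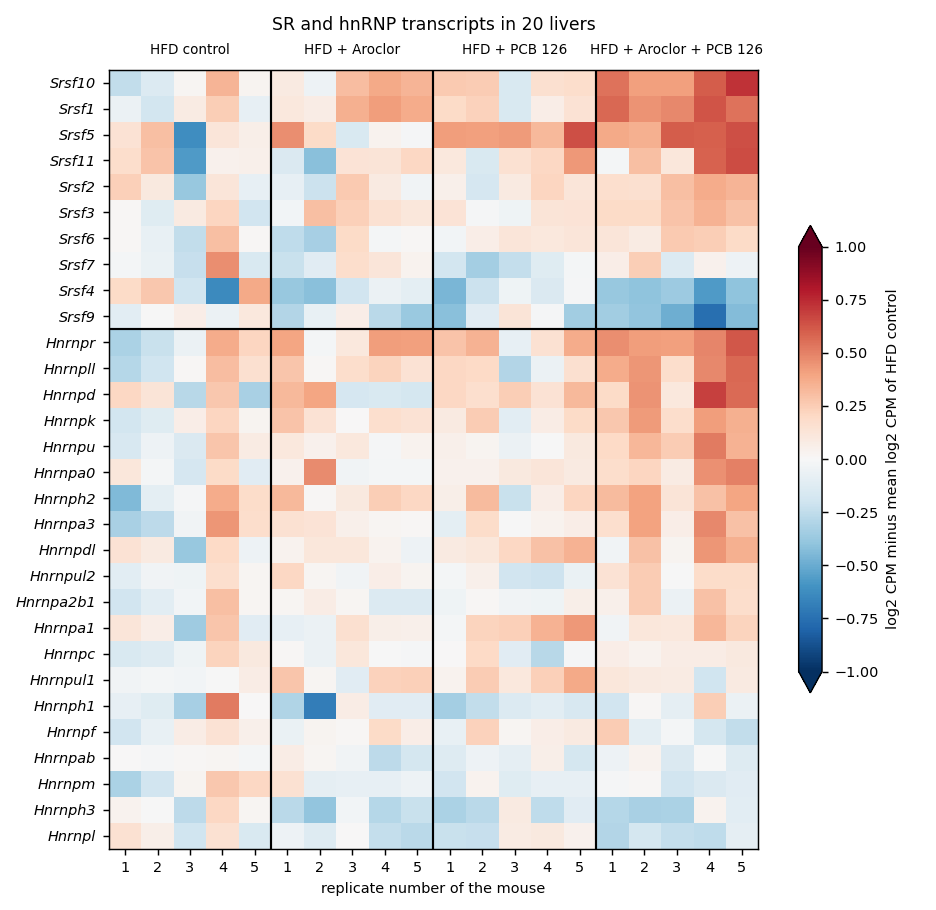
Level of 30 members (Srsf12 left out) in each of the 20 livers, as log2 CPM minus the mean log2 CPM of the HFD control mice, in columns by group and replicate number, SR genes above and hnRNP genes under the line. Srsf1, Srsf10, Srsf5 and Hnrnpr are higher and Srsf9 lower in all 5 combined exposure mice. Control replicate 4, the control library with the lowest GC slope, resembles those mice in many members.

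By subfamily, of the A/B-type genes Hnrnpa0, Hnrnpa1, Hnrnpa2b1, Hnrnpa3 and Hnrnpab, only Hnrnpa0 was called. Their proteins share a tandem of RNA recognition motifs and a glycine-rich tail. Group means were 35.0 ± 5.68 CPM in control and 38.5 ± 3.68 CPM in combined exposure livers for Hnrnpa1 (SD, n = 5), 75.6 ± 17.2 and 90.6 ± 10.5 CPM for Hnrnpa3, and 154 ± 1.54 and 147 ± 7.87 CPM for Hnrnpab, none of them called. Hnrnpab was the steadiest of all members between control mice, and Hnrnpa3 spread widely there, from 59.1 CPM in replicate 1 to 101 CPM in replicate 4. Of the AU-rich element binders, Hnrnpd was called and its paralog Hnrnpdl was not. Hnrnpd had 54.9, 52.2, 39.4, 57.3 and 38.1 CPM in control and 54.6, 65.0, 51.2, 76.6 and 70.4 CPM in combined exposure livers, and Hnrnpdl 57.4, 55.2, 39.8, 59.6 and 50.0 and 50.6, 63.4, 53.0, 70.5 and 66.2 CPM (0.21 ± 0.11, adjusted p = 0.140, edgeR). In both genes combined exposure replicates 2, 4 and 5 lay above all control mice. Of the pair Hnrnpl and Hnrnpll, which bind CA repeats, the abundant Hnrnpl had 96.3 ± 11.1 and 82.9 ± 4.64 CPM (-0.22 ± 0.095, adjusted p = 0.0846, edgeR). The scarce Hnrnpll had 18.95 ± 3.23 and 24.9 ± 2.48 CPM, so their log2 fold changes had opposite signs. With the GC correction described next, Hnrnpl came to -0.099 (adjusted p = 0.557, edgeR) and Hnrnpll to 0.013 (adjusted p = 0.949, edgeR). Without correction, the Hnrnpu relatives Hnrnpul1 and Hnrnpul2 came to 0.040 and 0.15. Among the SR genes not called, Srsf2, whose protein binds enhancers of mixed sequence, had 87.9, 79.9, 57.6, 81.2 and 70.7 CPM in control and 83.7, 83.7, 92.1, 96.6 and 94.7 CPM in combined exposure livers (0.26 ± 0.11, adjusted p = 0.0795, edgeR). Control replicate 1 alone exceeded the lowest combined exposure mice. With 50.4% GC its difference hardly moved with the GC correction described next (0.25).

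The number of called members moved with single mice, from 8 without control replicate 5, where 4749 genes were called in all, to 14 without control replicate 4, where 5665 were, against 5089 with all mice. Hnrnpa0 kept its call in 9 of the 20 fits that each left out 1 mouse (adjusted p from 0.0202 to 0.131, edgeR), and lost it without control replicate 2, 3 or 5, Aroclor replicate 4 or 5, PCB 126 replicate 2, 3 or 5, or combined exposure replicate 2, 4 or 5. Hnrnpd lost its call without control replicate 2, 3 or 5 or combined exposure replicate 2, 4 or 5 (adjusted p from 0.0548 to 0.114, edgeR). Srsf3 lost it without control replicate 1, 2 or 5 or combined exposure replicate 4 or 5 (0.0502 to 0.111), and Srsf4 without control replicate 5 (0.059). The other 8 called members, Srsf9 among them, kept their calls in 20 of 20.

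Correcting each library for its GC slope changed which members differed. The correction subtracts a smooth trend over GC content, fitted per library over genes of at least 1 CPM, and lowers the values of GC-poor genes in libraries with a negative slope. With it, edgeR called 8 of 31 members between combined exposure and HFD control, against 9.41% of all tested genes. Only Hnrnpa0 was higher (3.79% of all genes), and 7 members were lower, Hnrnpa2b1, Hnrnpc, Hnrnph1, Hnrnph3, Hnrnpm, Srsf7 and Srsf9 (5.61%). Called in the same direction without and with the correction were 2 members, Hnrnpa0 and Srsf9, against 5.91% of all genes. The sign of the log2 fold change turned in 13 members, against 27.9% of all genes. All 9 higher calls that were lost belonged to members with 42.1% to 45.1% GC, and their log2 fold changes fell between 0.33 and 0.46 on the log2 scale. The median over the 31 members went from 0.21 to -0.091 (all tested genes -0.022), over Srsf genes to 0.048 and over Hnrnp genes to -0.12. Across genes, which are not independent replicates and share the same 20 libraries, Spearman's correlation of log2 fold change with GC content was -0.40 over the 31 members and -0.68 over all genes, and 0.30 and -0.0069 after correction.

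**Figure D3:**
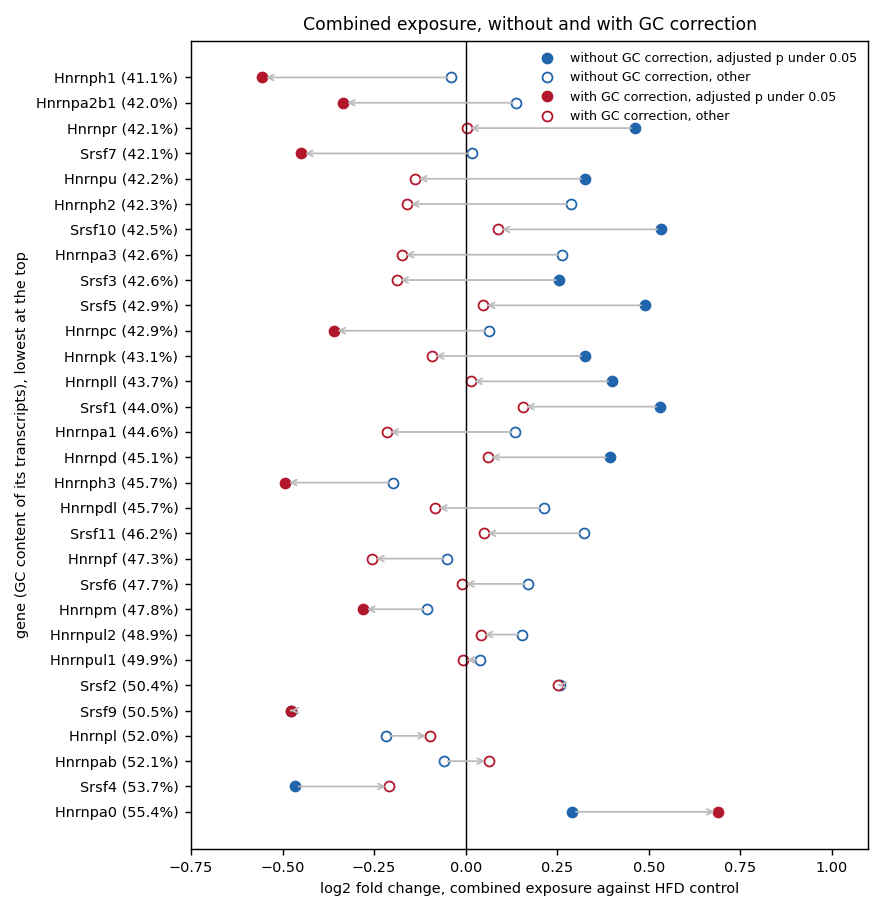
Log2 fold change of 30 members between combined exposure and HFD control, without (blue) and with (red) GC correction, joined by arrows, with genes ordered by GC content (in parentheses) and filled points for adjusted p under 0.05. GC-poor members at the top move to lower values, Srsf9 (50.5% GC) stays in place and Hnrnpa0 (55.4% GC) moves to a higher value.

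Hnrnpa0 (ENSMUSG00000007836, chr13:58125879-58128556, minus strand) and Srsf9 (ENSMUSG00000029538, chr5:115327177-115333080, plus strand) were the members called without and with the correction. Neither call held in every setting tried. The uncorrected Hnrnpa0 call was lost with DESeq2 size factors (adjusted p = 0.0665, edgeR), with no filter (0.0561) and with only the compared groups (0.0791), and the Srsf9 call was lost with a GC trend learnt from all tested genes (0.0629). GC-corrected Hnrnpa0 stood at 23.4, 22.3, 22.2, 31.1 and 22.6 CPM in control and 32.5, 35.4, 29.0, 51.7 and 47.3 CPM in combined exposure livers. Replicates 4 and 5 of the combined exposure, the libraries with the most negative GC slopes, were the highest, and control replicate 4 exceeded the lowest of them (0.69 ± 0.15, adjusted p = 0.00881, edgeR). The correction thus widened its difference from 0.29. GC-corrected Srsf9 had 18.4, 19.5, 21.9, 19.3 and 21.7 CPM in control and 15.5, 15.1, 14.2, 12.5 and 15.04 CPM in combined exposure livers, still without overlap (-0.48 ± 0.11, adjusted p = 0.0122, edgeR). Its 5 annotated transcripts together hold 50.5% GC, close to the median gene, and none of its 75-base windows is shared with another annotated gene. Its longest complete coding sequence alone holds 58.4% GC. How the correction would act on any member with the GC content of single transcripts was not tested.

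After correction 5 members stood lower without overlap between control and combined exposure mice, Hnrnpa2b1, Hnrnpc, Hnrnph1, Hnrnph3 and Srsf9, against 5.27% of all genes. Hnrnpc fell from 106, 102, 102, 111 and 108 to 83.9, 79.0, 91.2, 78.1 and 79.5 GC-corrected CPM (-0.36 ± 0.071, adjusted p = 0.00556, edgeR). The uncorrected values had been 83.7, 85.0, 90.2, 109 and 99.6 CPM in control and 97.6, 95.1, 97.7, 98.1 and 99.5 CPM in combined exposure livers, the latter inside the control range. Hnrnpa2b1 went from 384, 385, 377, 427 and 371 to 295, 329, 299, 321 and 298 GC-corrected CPM (-0.33 ± 0.087, adjusted p = 0.0210, edgeR). Its uncorrected values, 294, 313, 331, 415 and 342 CPM in control and 348, 402, 323, 411 and 379.8 CPM in combined exposure livers, pointed the other way without passing the test.

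Hnrnph1, which binds runs of G near splice sites, and its shorter relative Hnrnph3 were lower after correction. Hnrnph1 had 83.9, 77.2, 60.1, 98.8 and 72.5 GC-corrected CPM in control and 48.1, 53.6, 56.7, 59.9 and 48.8 in combined exposure livers (-0.56 ± 0.15, adjusted p = 0.0247, edgeR). Control replicate 3 only just cleared the highest combined exposure mouse. For Hnrnph3 the values were 31.8, 29.6, 24.9, 31.1 and 28.9 in control and 19.8, 18.8, 20.6, 23.5 and 21.2 in combined exposure livers (-0.49 ± 0.11, adjusted p = 0.0127, edgeR), again with replicate 3 the lowest control. Their relatives Hnrnpf and Hnrnph2 were not called, at -0.25 ± 0.099 (adjusted p = 0.107, edgeR) and -0.16 ± 0.082 (adjusted p = 0.238, edgeR). Srsf7, an SR protein with a zinc knuckle, went from 32.6, 29.7, 24.6, 35.9 and 24.8 to 22.6, 24.7, 21.3, 20.4 and 19.2 GC-corrected CPM (-0.45 ± 0.12, adjusted p = 0.0284, edgeR). Its groups overlapped, and control replicates 1 and 4 were highest. Hnrnpm, which shares 12.96% of its 75-base windows with March2, a gene on the same strand that it overlaps, was lower by a narrow margin (-0.28 ± 0.087, adjusted p = 0.0481, edgeR).

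Of the 10 members called higher without correction, 9 were not called with it, and Hnrnpa0 was. Srsf1 had 73.6, 64.0, 74.8, 75.2 and 63.5 GC-corrected CPM in control and 81.9, 72.7, 82.7, 79.1 and 74.7 in combined exposure livers (0.16 ± 0.081, adjusted p = 0.244, edgeR). Srsf10 had 17.0, 17.3, 18.1, 20.4 and 17.3 GC-corrected CPM in control and 19.6, 17.2, 19.4, 18.9 and 20.6 in combined exposure livers (0.088 ± 0.086, adjusted p = 0.585, edgeR). Both groups now overlapped for each gene. The corrected log2 fold changes were 0.048 for Srsf5, 0.0030 for Hnrnpr, 0.013 for Hnrnpll and 0.060 for Hnrnpd. They turned sign in Hnrnpk (-0.091 ± 0.062, adjusted p = 0.390, edgeR), Hnrnpu (-0.14 ± 0.077, adjusted p = 0.283, edgeR) and Srsf3 (-0.19 ± 0.10, adjusted p = 0.251, edgeR). Srsf4, at 53.7% GC, came to -0.21 ± 0.12 (adjusted p = 0.320, edgeR).

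**Figure D4:**
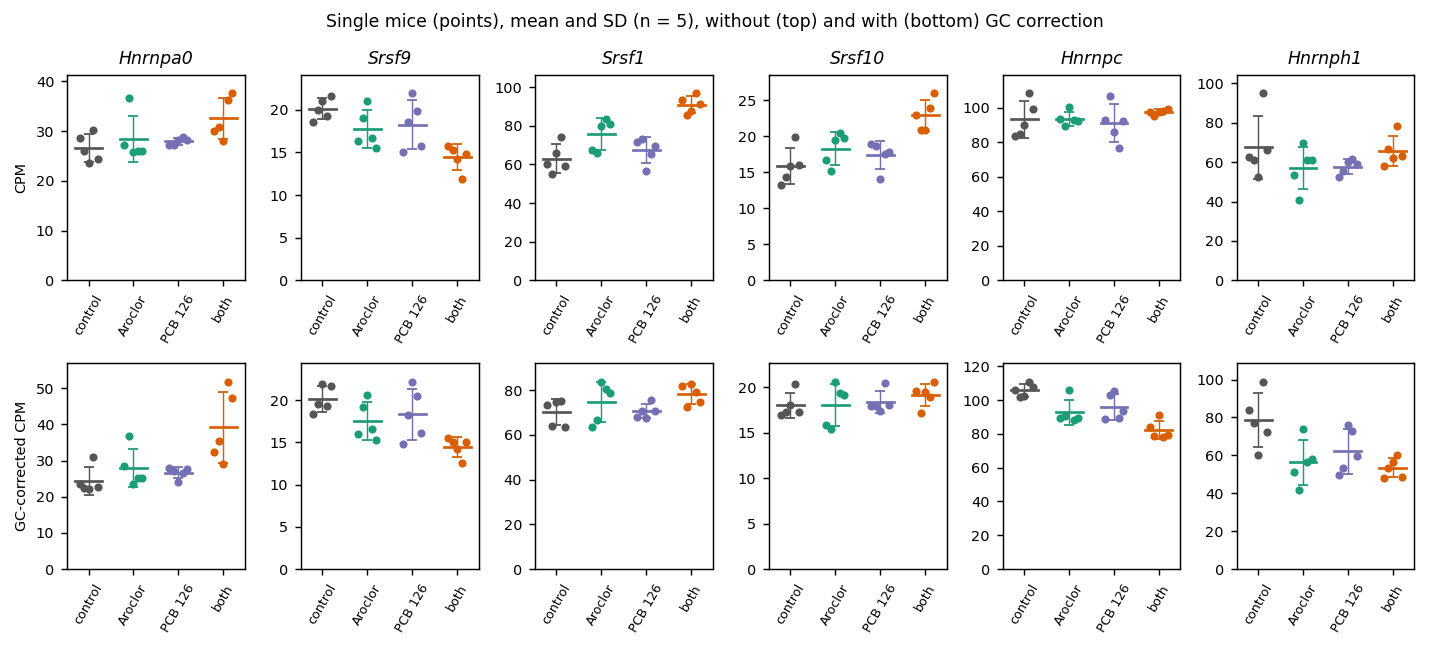
Levels of Hnrnpa0, Srsf9, Srsf1, Srsf10, Hnrnpc and Hnrnph1 in single mice (points) of the 4 groups, with mean and SD (n = 5), as CPM (top) and GC-corrected CPM (bottom). Srsf9 is lower with the combined exposure in both panels, Srsf1 and Srsf10 separate in the top panel only, and Hnrnpc and Hnrnph1 in the bottom panel only.

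Without 1 mouse at a time, a setting not planned beforehand, the corrected fits called 4 to 8 members, 4 without combined exposure replicate 5 and 5 without control replicate 4. Hnrnpa0, Srsf9, Hnrnpc and Hnrnph3 kept their calls in 20 of 20 such fits, Hnrnpa2b1 in 19 (adjusted p = 0.0594 without combined exposure replicate 5, edgeR), Hnrnph1 in 17, Srsf7 in 16 and Hnrnpm in 3. Hnrnph1 lost its call without control replicate 4 or combined exposure replicate 1 or 5, and Srsf7 without control replicate 1 or 4 or combined exposure replicate 4 or 5 (adjusted p from 0.0529 to 0.0809, edgeR). Hnrnpm, at an adjusted p of 0.0481 with all mice, kept it only without control replicate 1 or 2 or PCB 126 replicate 1 (edgeR). With the GC trend learnt from all tested genes, 4 members were called, and 437 genes in all against 1460. Srsf9 (adjusted p = 0.0629), Srsf7 (0.0678), Hnrnpa2b1 (0.0761) and Hnrnpm (0.180) lost their calls there (edgeR).

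Aroclor alone gave no call. edgeR called 0 of 31 members against HFD control (0% of all tested genes), DESeq2 called 0, and 2 had an unadjusted p under 0.05 (17.2% of all genes), Srsf1 and Hnrnph3. Srsf1 stood at 67.4, 65.9, 80.0, 83.6 and 81.0 CPM with Aroclor (0.26 ± 0.097, adjusted p = 0.218, edgeR). Aroclor replicates 3 to 5 lay above all control mice and replicates 1 and 2 within their range. Hnrnph3 had 22.2, 20.3, 26.3, 21.9 and 22.9 CPM (-0.24 ± 0.11, adjusted p = 0.256, edgeR), and Srsf4 24.5, 23.9, 27.9, 30.7 and 29.9 CPM (-0.27 ± 0.14, adjusted p = 0.332, edgeR). After GC correction edgeR called 0 members (0% of all genes) and 5 had an unadjusted p under 0.05 (14.6%), all with negative log2 fold changes, from -0.48 in Hnrnph1 to -0.17 in Hnrnpu.

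PCB 126 alone gave no call among the members either. edgeR called 0 of 31 (0.116% of all tested genes), DESeq2 0, and 3 had an unadjusted p under 0.05 (14.7% of all genes), Srsf5, Hnrnpa1 and Hnrnpul1. Srsf5 stood at 191, 190.1, 191, 179 and 223 CPM with PCB 126, every mouse above every control mouse, as 1.23% of all genes did (0.42 ± 0.14, adjusted p = 0.194, edgeR). Hnrnpa1, an hnRNP that silences exons and binds miRNA precursors, had 34.2, 40.4, 40.8, 44.0 and 46.9 CPM, against 37.7, 36.2, 27.1, 42.0 and 32.1 CPM in control livers (0.24 ± 0.11, adjusted p = 0.325, edgeR). The groups overlapped, and 27.04% of its 75-base windows are shared with other annotated genes, the pseudogene Hnrnpa1l2-ps among them, so its counts are less certain. After GC correction edgeR called 0 members (0.348% of all genes) and 4 had an unadjusted p under 0.05 (15.2%), Srsf5 and Hnrnpul1 with positive and Hnrnph1 and Srsf7 with negative log2 fold changes. Over the 31 members the median log2 fold change was 0.036 with Aroclor and 0.051 with PCB 126 without correction, and -0.12 and -0.034 with it. Both comparisons share the control mice with the combined exposure comparison.

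**Figure D5:**
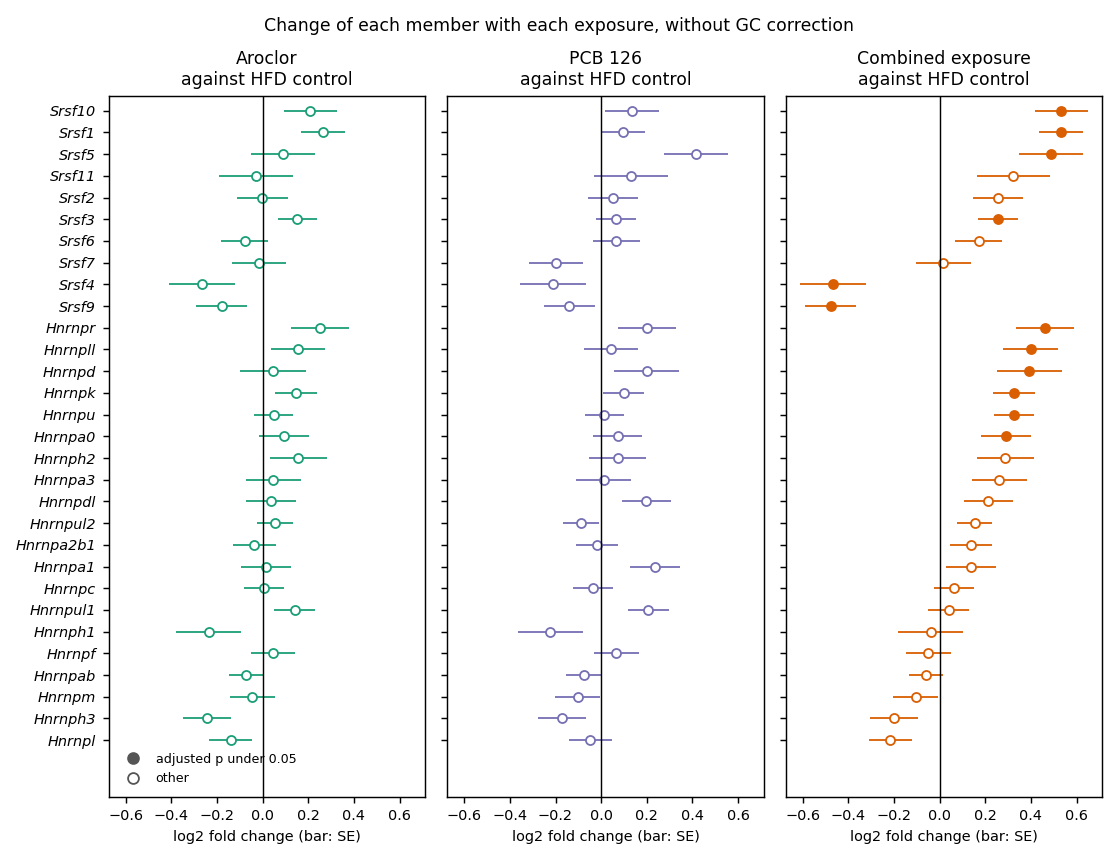
Log2 fold change against HFD control (point) with its SE (bar) for 30 members under Aroclor, PCB 126 and the combined exposure, without GC correction, filled for adjusted p under 0.05. Filled points appear in the combined exposure panel only, 10 to the right and 2 to the left of 0.

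Set against the single exposures, more members passed the test against PCB 126 than against Aroclor. Against PCB 126 edgeR called 5 members higher (5.64% of all genes), Srsf1, Srsf10, Hnrnpll, Hnrnpu and Hnrnpul2, and 1 lower (11%), Srsf9. Srsf1 had 71.7, 73.3, 56.4, 65.6 and 69.4 CPM with PCB 126, all below the combined exposure mice (0.43 ± 0.097, adjusted p = 0.0143, edgeR). Srsf10 had 18.9, 18.7, 14.1, 17.5 and 17.8 CPM, again without overlap (0.40 ± 0.12, adjusted p = 0.0286, edgeR). For Srsf9 the PCB 126 values were 15.03, 18.6, 21.9, 19.9 and 15.8 CPM, of which replicates 1 and 5 reached into the range of the combined exposure (-0.34 ± 0.11, adjusted p = 0.0451, edgeR). Higher without overlap were 5 members (3.97% of all genes), Srsf1, Srsf3, Srsf10, Hnrnpr and Hnrnpu. After GC correction edgeR called 0 members (0% of all genes), with 9 at an unadjusted p under 0.05 (20%). Among those, Hnrnpa0 had 0.56 ± 0.15 (adjusted p = 0.0804, edgeR) and Srsf9 -0.34 ± 0.11 (adjusted p = 0.109, edgeR). These counts moved together with those over all genes. The uncorrected count fell to 1 without PCB 126 replicate 3 or 4 or without combined exposure replicate 4 or 5, where the calls over all genes went from 2589 to 441, 288, 599 and 245, and to 3 without combined exposure replicate 2 (1854 genes in all). The corrected count rose to 3 without PCB 126 replicate 1, where the calls over all genes went from 0 to 792.

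Against Aroclor edgeR called 0 members (0.412% of all genes), while 9 had an unadjusted p under 0.05 (23.4%). DESeq2 called 4 members there, among 1343 genes in all. Higher without overlap were 3 members (2.59% of all genes), Srsf1, Srsf10 and Hnrnpu. Srsf5 had the largest log2 fold change among members with counts in every mouse (0.40 ± 0.14, adjusted p = 0.110, edgeR), followed by Srsf11, an SR protein that interacts with U2AF (0.35 ± 0.16, adjusted p = 0.195, edgeR). Srsf11 stood at 57.0, 47.1, 69.2, 68.9 and 72.8 CPM with Aroclor and at 62.1, 77.6, 68.3, 95 and 99.3 CPM with the combined exposure, where replicates 4 and 5 were high. After GC correction edgeR called 0 (0.0515% of all genes), with 4 at an unadjusted p under 0.05 (11.4%), Hnrnpa0, Hnrnpc, Srsf2 and Srsf9.

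The interaction asks whether the combined exposure differed from the sum of both single effects on the log2 scale. edgeR called 0 members (0% of all genes), DESeq2 0, and 2 had an unadjusted p under 0.05 (11.9%), Hnrnpu at 0.26 ± 0.12 (adjusted p = 0.413, edgeR) and Hnrnpul1, its relative, at -0.31 ± 0.13 (adjusted p = 0.365, edgeR). Hnrnpul1 had 42.7, 43.2, 42.9, 43.6 and 46.0 CPM in control, 53.0, 44.3, 40.4, 51.3 and 51.6 CPM with Aroclor, 44.7, 52.1, 46.8, 51.6 and 56.6 CPM with PCB 126 and 47.2, 46.5, 46.3, 38.1 and 46.4 CPM with the combined exposure. The single exposures held its highest mice, and the combined exposure mice lay near control except replicate 4, which was lower. Hnrnph1 had the largest interaction estimate among members with counts in every mouse (0.42 ± 0.20, adjusted p = 0.420, edgeR), with control replicate 4 far above its group. After GC correction edgeR again called 0 members (0% of all genes) and Hnrnpul1 alone had an unadjusted p under 0.05 (10.8% of all genes).

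Genes of the same machinery without the Srsf or Hnrnp prefix were counted in lists by function for the combined exposure against HFD control. These counts stand beside 15.8% of all tested genes called higher and 17% called lower without, and 3.79% and 5.61% with GC correction. Of 20 U1, U2 and 3′ splice site factors, edgeR called 2 higher and 9 lower without and 0 higher and 8 lower with GC correction. Lower in both were Sf3b5, a small subunit of the SF3b complex (-1.35, then -1.66), Snrpa, the A protein of the U1 particle (-0.91, then -0.56), Phf5a of SF3b (-0.52, then -0.68) and Sf3a1 of SF3a (-0.29, then -0.29). Sf3a2 fell by 0.86 on the log2 scale without correction and was not called with it. Of 8 Sm proteins, which form the ring around the snRNAs, 2 were lower without and 3 with correction, Snrpd2 in both (-0.58, then -0.59), while Snrpb was called without correction only (-0.59) and Snrpg in neither (-0.27, then -0.36). Of 18 tri-snRNP and catalytic factors, 2 were higher and 5 lower without, and 0 higher and 5 lower with correction. Lower in both were Prpf3, Prpf31, Snrnp40 and the helicase Dhx38 (-0.93, then -0.56), and the helicases Dhx15 (0.52) and Dhx16 (-0.61) were called without correction only.

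Of 11 SR protein kinases and importers, 3 were higher and 1 lower without, and 0 and 1 with correction. The kinase Srpk2 (0.55) and the importer Tnpo1 (0.75) were higher without correction only, and the muscle-type kinase Srpk3 was not called (-1.02, adjusted p = 0.230, edgeR). Of 19 SR-related proteins, 3 were higher and 3 lower without correction, near the shares of all tested genes, and 0 and 2 with it. Luc7l2 (0.57), Son (0.46) and Scaf1 (-0.86) were called without correction only. Of 10 hnRNP family genes with other symbols, 2 were higher and 3 lower without, and 1 and 0 with correction. Syncrip (0.61), Raly (-0.48) and Pcbp1 (-0.46) were called without and Cirbp, a cold-inducible RNA-binding protein, with correction only (0.75). Rbmx, which encodes hnRNP G, was called in neither (0.23, then 0.0030). Of 23 other alternative splicing regulators, 11 were higher and 1 lower without, and 1 and 0 with correction. Qk (0.91), Mbnl2 (0.86) and Ptbp3 (0.83) were higher without correction only, and Esrp2, an epithelial splicing regulator, with correction only (0.26). None of the genes in these lists was called with Aroclor or PCB 126 alone in either fit.

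All values are gene totals, in which the isoforms of a gene are added up. The 31 members have 282 annotated transcripts, 19 members have at least 1 transcript marked for nonsense-mediated decay and 22 at least 1 with a retained intron, so a change between productive and unproductive isoforms was not measured. For 16 members no 75-base window of their transcripts, the number of cycles read, occurs in another annotated gene. More than 10% of windows were shared in Hnrnpf (34.2%), Hnrnpa1 (27.04%), Hnrnpa3 (26.1%), Hnrnpm (12.96%), Hnrnpk (11.7%) and Hnrnph2 (11.1%). The annotated spans of 6 members, introns included, overlap the span of another protein-coding gene. These are Hnrnpab (Phykpl), Hnrnph3 (Rufy2), Hnrnpk (Rmi1), Hnrnpu (Cox20) and Srsf2 (Mettl23 and Mfsd11) on the opposite strand and Hnrnpm (March2) on the same strand. Overlap of exons was not measured. Whether counting used strand is not given in the sources used here, and the values of these genes are less certain for that reason.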

How the data were processed

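RNA was measured in livers of 20 male mice, 5 per group, groups taken from the sample labels. Per the labels and the study's methods, the authors sequenced TruSeq stranded mRNA libraries for 75 cycles in 2 runs, checked the reads with FastQC 0.10.1, used STAR 2.6 to align them to GRCm38.p6, and ran HTSeq 0.10.0 on the alignments to obtain a count for each gene. The annotation release and the strand setting are not given in the sources used here. The deposited count table holds raw, whole-number counts per gene, not normalized. Gene symbols, types and positions were taken from GENCODE M21 by gene identifier, and 26 of the 21780 identifiers were not found there.

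Genes with at least 10 counts in total (15522) were tested with edgeR 4.0.16 in R 4.3.3, using TMM scaling, 1 group term over all 20 libraries (16 residual degrees of freedom), the quasi-likelihood test and Benjamini-Hochberg adjustment over all tested genes, with an adjusted p under 0.05 as a call. SE is the absolute log2 fold change divided by the square root of the test's F. CPM use TMM-scaled library sizes. For GC correction, a smoothing spline with 6 degrees of freedom of each library's log2 CPM deviation over transcript GC content was fitted on genes of at least 1 CPM and entered as an offset. The scripts were tested on simulated data. Alternatives were DESeq2 size factors, DESeq2 1.42.0, no filter and a filter of FPKM of at least 1 in 3 libraries. Others were only the compared groups, a replicate block and each mouse left out. Leaving out each mouse after GC correction was not planned beforehand. A GC trend from all genes was added after seeing the data. Chi-square tests between mice of a group (19.7 or more per degree of freedom) found no library deposited more than once.

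The members and gene lists were chosen with earlier results of these data known. Members shown with values in every mouse were those called without and with GC correction, those called in either whose sign turned, the 3 largest changes of each comparison, and both m6A readers, and others described in full were chosen after their values were seen. Each library came from a separate mouse, so the tests measure the spread between mice. The gene totals do not resolve isoforms.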

Additional observations from a re-analysis of the deposited data

Results flagged for a closer look

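In 10 of 124 tests of a member within a group of 5 mice, 1 mouse stood apart from the other 4 by Dixon's criterion at the 95% level, where chance gives about 1 in 20. Hnrnpa0 stood at 36.7 CPM in Aroclor replicate 2, where the other 4 mice ran from 25.8 to 27.3 CPM. Hnrnpm stood at 65.9 CPM in Aroclor replicate 1, where the other 4 mice ran from 55.7 to 57.1 CPM. Hnrnpul1 stood at 46.0 CPM in HFD control replicate 5, where the other 4 mice ran from 42.7 to 43.6 CPM. Hnrnpul1 stood at 38.1 CPM in combined exposure replicate 4, where the other 4 mice ran from 46.3 to 47.2 CPM. Srsf10 stood at 14.1 CPM in PCB 126 replicate 3, where the other 4 mice ran from 17.5 to 18.9 CPM. Srsf4 stood at 21.5 CPM in combined exposure replicate 4, where the other 4 mice ran from 24.1 to 24.9 CPM. Srsf5 stood at 223 CPM in PCB 126 replicate 5, where the other 4 mice ran from 179 to 191 CPM. Srsf7 stood at 35.0 CPM in HFD control replicate 4, where the other 4 mice ran from 21.6 to 25.1 CPM. Srsf12 stood at 0 CPM in Aroclor replicate 5, where the other 4 mice ran from 0.0273 to 0.0333 CPM. Srsf12 stood at 0.291 CPM in combined exposure replicate 4, where the other 4 mice ran from 0 to 0.0700 CPM. The Srsf12 values rest on 0 and 8 counts. No member moved one way in every mouse of one exposure and the opposite way in every mouse of another.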

How the results depend on the processing

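Several results kept their direction and their side of the threshold in the settings tried. Counts of called members for Aroclor, PCB 126 and the interaction stayed at 0 in each setting run and without each mouse. For the combined exposure against HFD control (12 calls), DESeq2 size factors gave 9, DESeq2 13, no filter 11, the FPKM filter 13 and a fit of the compared groups alone 8. Same-numbered mice of different groups correlated at -0.31 to 0.55 over 30 pairs (mean 0.082). Other pairs of mice from different groups correlated at -0.46 to 0.45 over 120 pairs (mean -0.019). Of the 20 mice, 8 were closest to a mouse of their own number. These values do not settle whether replicate numbers pair the mice. The library name of PCB 126 replicate 2 carries the number 3, like that of replicate 3, and replicate numbers were taken from the sample titles. The replicate block gave 12 calls, or 7 with GC correction. A GC trend learnt from all tested genes, chosen after the data were seen, gave 4. Against PCB 126 (6 calls), 0 were left with GC correction, 0 with GC correction and the replicate block, 0 with the all-gene GC trend and 2 when only the compared groups were fitted. Against Aroclor (0 calls) DESeq2 gave 4. Leaving out 1 mouse gave 8 to 14 calls for the combined exposure (4 to 8 after GC correction), 1 to 6 against PCB 126 (0 to 3 after GC correction) and 0 in the other comparisons.

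The log2 fold change of the combined exposure against HFD control turned sign with GC correction, with GC correction plus the replicate block and with the all-gene GC trend in these members, values in that order. They were Hnrnpa1 -0.22, -0.23 and -0.20, Hnrnpa2b1 -0.33, -0.33 and -0.32, Hnrnpa3 -0.17, -0.17 and -0.16, Hnrnpab 0.063, 0.060 and 0.044. They were Hnrnpc -0.36, -0.36 and -0.35, Hnrnpdl -0.083, -0.088 and -0.073, Hnrnph2 -0.16, -0.15 and -0.14, Hnrnpk -0.091, -0.091 and -0.080. They were Hnrnpu -0.14, -0.14 and -0.13, Hnrnpul1 -0.0064, -0.0058 and -0.0068, Srsf3 -0.19, -0.19 and -0.18, Srsf7 -0.45, -0.44 and -0.43. Srsf6 came to -0.0089 with GC correction and -0.014 with the block added, and to 0.0022 with the all-gene trend. Srsf7 was at -0.00096 with DESeq2 size factors and -0.00038 in DESeq2. Srsf10 against PCB 126 was at -0.0026 with the all-gene trend. The cause of these changes beyond the GC offset was not tested. Leaving out 1 mouse turned small log2 fold changes, giving ranges after GC correction of Hnrnpd -0.022 to 0.14, Hnrnpll -0.023 to 0.056, Hnrnpr -0.031 to 0.058, Hnrnpul1 -0.021 to 0.039, Srsf11 -0.061 to 0.13, Srsf12 -0.59 to 1.70, Srsf5 -0.079 to 0.15, Srsf6 -0.055 to 0.051, without correction of Hnrnph1 -0.11 to 0.12, Srsf12 -0.42 to 1.87, Srsf7 -0.040 to 0.15, and with Aroclor alone of Srsf12 -1.0 to 0.24. Depth limits Srsf12, with 23 counts in all.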
